A study of Homo sapiens with 12 samples.

Results

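Chromosomes are untangled, folded and paired by a small set of protein machines, and 10 genes of those machines were followed here in RBE cells, an established line of human cholangiocarcinoma, a cancer of the bile duct. The genes are TOP2A, TOP2B, SMC2, SMC4, NCAPD2, NCAPG, NCAPH, CDCA5, ESCO2 and ESCO1. They were taken from the deposited count table as the entries whose gene symbol matched one of these names, which gave 10 of 55773 entries. Of those entries, 29603 held a count in any library and 15691 passed the filter on low counts, all 10 genes among them. The study asked how 2-hydroxyglutarate (2-HG), the product of mutant IDH1, alters gene expression under p53. Poly(A) RNA was sequenced in 12 libraries, 3 in each of 4 groups. The AG120_Nutlin group received AG-120 (ivosidenib, a mutant IDH1 inhibitor) at 5 µM for 22 days and then Nutlin, an MDM2 inhibitor that activates p53, at 5 µM for 72 hours. The vehicle_Nutlin group received DMSO in place of AG-120 and then the same Nutlin treatment. The AG120 group received the 22 days of AG-120 and then DMSO in place of Nutlin. The vehicle group received DMSO in place of AG-120 and DMSO in place of Nutlin. All groups are of 1 cell line, and the labels do not state whether the replicates were separate cultures, and p-values here reflect only how much these libraries vary, some of which may be technical.

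Type II topoisomerases cut a DNA duplex, pass another through the gap and reseal it. TOP2A is made mainly in dividing cells, where it separates the intertwined sister chromatids, whereas TOP2B is also made in cells that do not divide. Condensin is a ring-shaped ATPase that compacts chromosomes for mitosis, and cohesin is a related ring that holds sister chromatids together from replication until anaphase. Condensin I and condensin II share the core of SMC2 and SMC4 and differ in their other subunits. Cohesion is fixed during replication when ESCO1 or ESCO2 acetylates the cohesin subunit SMC3 and sororin, the product of CDCA5, then keeps cohesin from being released. RNA levels in a culture do not tell fewer cells of a kind from less RNA per cell, which holds for every result below.

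The libraries held 16840161 to 27499433 counts, with a median of 19221201. MDM2 and CDKN1A, direct p53 targets that check the Nutlin treatment, were higher with Nutlin by 4.36 and 4.52 on the log2 scale in AG-120 cells and by 4.29 and 4.47 in vehicle cells. All 4 biliary epithelial markers (KRT7, KRT19, EPCAM, SOX9) were detected in every group, with a summed level of 2556 to 2642 CPM (counts scaled to library size) in AG120_Nutlin, 3450 to 4429 in vehicle_Nutlin, 3473 to 4300 in AG120 and 3027 to 3169 in vehicle. Of 5 fibroblast markers, DCN and LUM were at 0 in every library, and the 5 summed to 2.41 to 5.30 CPM with Nutlin and 36.0 to 43.4 CPM without it, nearly all of it from COL1A1 and PDGFRB. Leukocyte markers summed to at most 0.170 CPM and the 2 endothelial markers in the table to at most 1.00 CPM. The part of the fibroblast markers in the results below was not tested. The share of genes that lay over 2-fold from the rest of their group was 7.58%, 11.8% and 15.01% in vehicle_Nutlin replicates 1, 2 and 3, 4.64% in AG120 replicate 1 and 1.77% to 3.10% in the other 8 libraries. Of these, vehicle_Nutlin replicates 2 and 3 and AG120 replicate 1 were called outlying in an earlier analysis of these data, and results that rest on those 3 libraries are given with and without them. Without them vehicle_Nutlin has 1 library, which is assumed to vary like the other groups.

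Promoter sequence from RefSeq (GRCh38.p14) was found for 8 of the 10 genes, all but ESCO1 and ESCO2, as windows of 300 bases around the annotated start, 250 before it and 50 after it. The letters searched on both strands were CCAAT, the cell cycle genes homology region (CHR) as TTTGAA or TTCGAA, and TTTNNCGC as an E2F-type motif. Over all 35116 windows of the table, 34.6% held CCAAT, 10.8% held it at least 2 times, 16.4% held a CHR match, 6.89% held the E2F-type letters and 6.38% held both CCAAT and CHR. The 250 bases before the start are shown for 5 genes that differ in their response to Nutlin. TOP2A, NCAPG and CDCA5 were among those that fell most, NCAPD2 fell less, and TOP2B fell least of those that changed. NCAPH, at a log2 fold change of −5.31 in AG-120 cells against −5.07 for CDCA5, is not shown. Its window held no CHR or E2F-type match. Capitals mark the matches, and ATTGG and TTCAAA are CCAAT and TTTGAA read on the opposite strand.
TOP2A, chr17:40417897-40418146, minus strand: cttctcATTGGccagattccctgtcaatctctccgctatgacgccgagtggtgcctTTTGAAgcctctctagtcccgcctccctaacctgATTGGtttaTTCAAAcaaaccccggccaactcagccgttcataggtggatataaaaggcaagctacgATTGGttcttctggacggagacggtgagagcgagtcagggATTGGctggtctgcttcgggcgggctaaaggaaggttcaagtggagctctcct
NCAPG, chr4:17810729-17810978, plus strand: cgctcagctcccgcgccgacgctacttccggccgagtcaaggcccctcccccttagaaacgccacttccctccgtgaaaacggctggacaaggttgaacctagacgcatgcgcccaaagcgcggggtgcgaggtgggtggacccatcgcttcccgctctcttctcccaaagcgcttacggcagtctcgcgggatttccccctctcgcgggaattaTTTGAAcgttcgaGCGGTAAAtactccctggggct
CDCA5, chr11:65084041-65084290, minus strand: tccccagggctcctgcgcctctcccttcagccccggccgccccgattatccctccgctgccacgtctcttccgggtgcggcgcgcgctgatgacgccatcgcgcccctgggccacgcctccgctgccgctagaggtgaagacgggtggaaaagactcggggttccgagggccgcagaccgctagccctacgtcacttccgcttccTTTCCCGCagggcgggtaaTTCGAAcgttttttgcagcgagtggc
NCAPD2, chr12:6493852-6494101, plus strand: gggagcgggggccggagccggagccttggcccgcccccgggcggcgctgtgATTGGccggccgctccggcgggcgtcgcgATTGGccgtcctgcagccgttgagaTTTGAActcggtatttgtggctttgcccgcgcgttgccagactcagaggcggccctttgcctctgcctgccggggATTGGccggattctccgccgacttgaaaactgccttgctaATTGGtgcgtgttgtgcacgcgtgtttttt
TOP2B, the second of its 2 windows, chr3:25664908-25665157, minus strand: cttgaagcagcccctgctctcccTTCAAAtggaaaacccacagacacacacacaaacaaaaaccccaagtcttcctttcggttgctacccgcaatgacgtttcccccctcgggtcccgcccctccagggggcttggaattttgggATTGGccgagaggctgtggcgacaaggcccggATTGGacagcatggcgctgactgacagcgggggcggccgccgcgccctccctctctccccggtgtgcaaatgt

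The TOP2A window held 4 CCAAT matches, at 244, 160, 93 and 53 bases before the start, and 2 CHR matches, at 194 and 151 bases. NCAPD2 held the same number of CCAAT matches, at 199, 170, 70 and 30 bases, and 1 CHR match at 145 bases. NCAPG and CDCA5 held no CCAAT but 1 CHR match each, at 35 and 26 bases before the start, close to 1 E2F-type match each, at 22 and 45 bases. The second TOP2B window held 2 CCAAT matches, at 105 and 73 bases, and 1 CHR match at 227 bases, and its first window held none of the motifs. NCAPH held 1 CCAAT match, and SMC2 and SMC4 held 1 CHR match each in the first of their 2 windows and none in the second. No match overlapped a match of another motif. CCAAT and CHR letters both stood in TOP2A, NCAPD2 and the second TOP2B window, genes whose log2 fold changes with Nutlin in AG-120 cells, described next, were −6.09, −2.44 and −0.88. A match is a description of letters in these windows and not a binding site.

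With Nutlin, 9 of the 10 genes fell and none rose, both in AG-120 cells and in vehicle cells; only ESCO1 was not called in either. A gene was called at an edgeR adjusted p of at most 0.05. Over all 15691 genes tested, 28.8% were called lower and 27% higher in AG-120 cells, and 27.1% were called lower and 26.8% higher in vehicle cells. The median log2 fold change of the 10 genes was −3.93 in AG-120 cells and −3.78 in vehicle cells, beside 0.00 and −0.02 for all genes. In each pretreatment the 3 libraries with Nutlin lay below the 3 without it for the same 9 genes, which held for 35.1% of all genes in AG-120 cells and 30.9% in vehicle cells. With the 3 outlying libraries left out, the 9 genes were again called lower in each pretreatment.

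**Figure D1:**
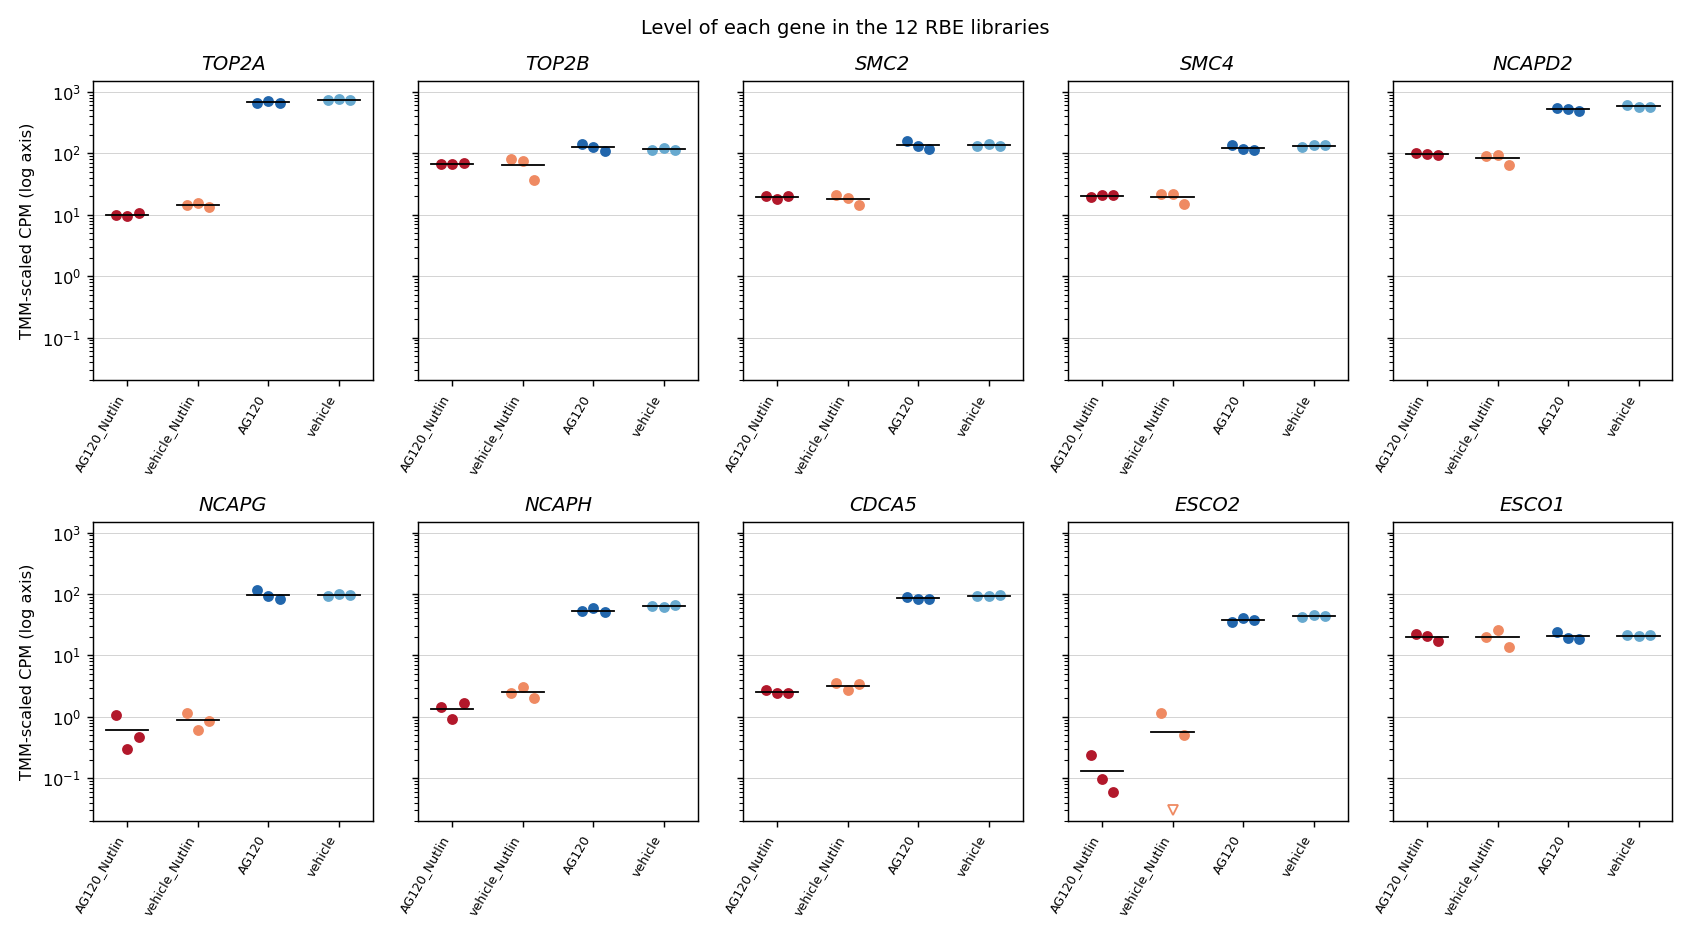
Level of each of the 10 genes in the 12 libraries, as CPM scaled by TMM (trimmed mean of M values) on a log axis; points are libraries, lines are group means of 3 libraries, and the open triangle is a library with 0 counts. The 6 Nutlin libraries lie below the 6 others for every gene but ESCO1, whose groups overlap.

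TOP2A (hg19 chromosome 17, 38544768 to 38574202) had 9.83, 9.57 and 10.5 CPM in AG120_Nutlin and 14.2, 15.6 and 13.3 CPM in vehicle_Nutlin, against 647, 720 and 669 CPM in AG120 and 726, 770 and 729 CPM in vehicle. Every Nutlin library was far below every library without Nutlin, and the 3 libraries of each group lay close together. The log2 fold change with Nutlin was −6.09 in AG-120 cells (SE 0.113, edgeR adjusted p = 3.28e-12) and −5.69 in vehicle cells (SE 0.110, adjusted p = 5.44e-12), which is 68.2-fold and 51.6-fold lower. By log2 fold change it ranked 89 from the lowest of 15691 genes in AG-120 cells and 94 in vehicle cells.

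TOP2B (chromosome 3, 25639475 to 25706398), the paralog that is not tied to division, had 66.3, 67.01 and 69.3 CPM in AG120_Nutlin and 79.6, 75.6 and 36.1 CPM in vehicle_Nutlin, against 140, 125 and 108.5 CPM in AG120 and 114, 120 and 113 CPM in vehicle. The groups with and without Nutlin did not overlap, and vehicle_Nutlin replicate 3 stood at 0.465 of the mean of the other libraries of its group. TOP2B fell by 0.88 on the log2 scale in AG-120 cells (SE 0.220, adjusted p = 0.00402) and fell by 0.86 in vehicle cells (SE 0.220, adjusted p = 0.00517). Whether the paralogs moved by the same factor was tested on the ratio of their counts within a library, which does not depend on how libraries are scaled.

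The TOP2A to TOP2B count ratio averaged 0.147 ± 0.00417 in AG120_Nutlin and 0.252 ± 0.102 in vehicle_Nutlin, against 5.51 ± 0.801 in AG120 and 6.43 ± 0.0365 in vehicle (SD, n = 3 each). TOP2A thus gave more reads than TOP2B in every library without Nutlin and fewer in every library with it. The difference in log2 ratio with Nutlin was −4.98, the mean of −5.21 in AG-120 cells and −4.75 in vehicle cells (two-sided exact permutation test within the pretreatments, p = 0.005, adjusted p = 0.00667 over 4 ratio tests). This p is the smallest that the 400 assignments can give. Per kilobase of transcript, which allows levels of different genes to be compared, TOP2A stood at 1.73 CPM in AG120_Nutlin and 2.50 in vehicle_Nutlin, against 118 in AG120 and 129 in vehicle. TOP2B stood at 12.5 CPM per kilobase in AG120_Nutlin and 11.8 in vehicle_Nutlin, against 23.1 in AG120 and 21.4 in vehicle.

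**Figure D2:**
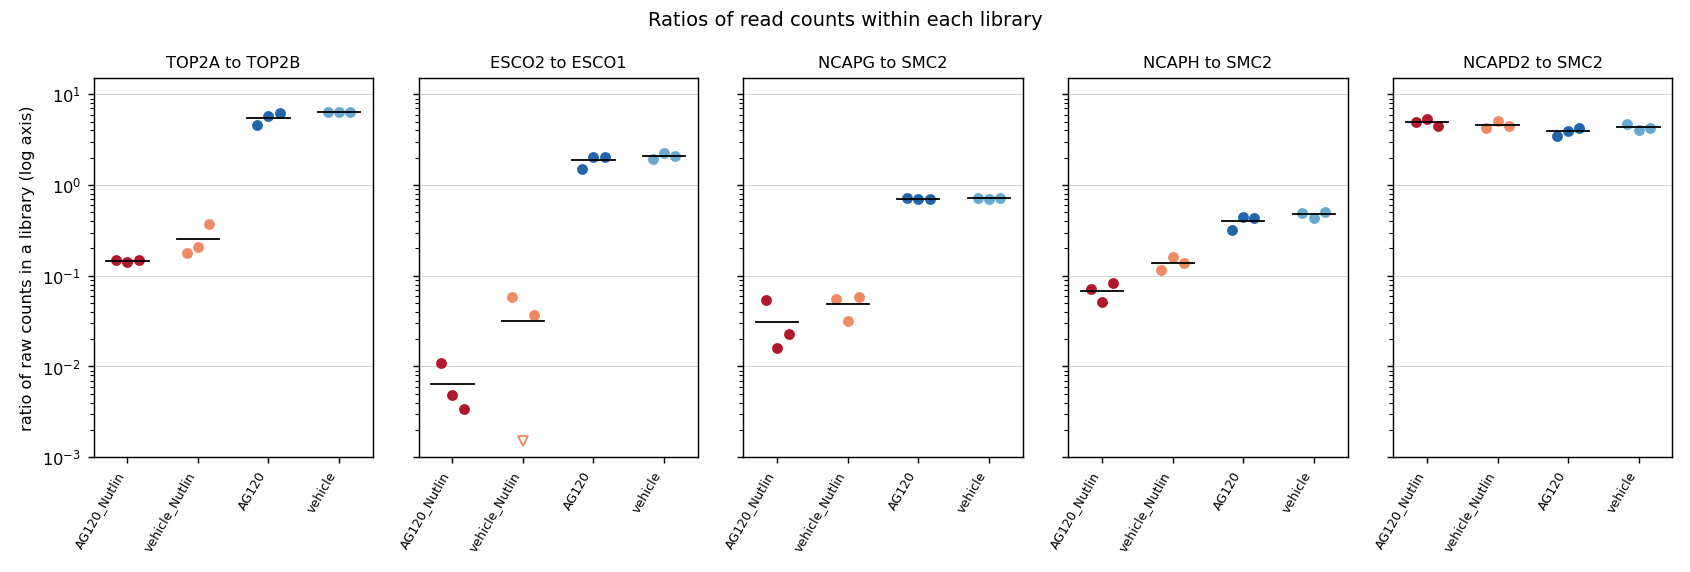
Ratio of raw counts of a pair of genes within each library, on a log axis; points are libraries, lines are group means of 3 libraries, and the open triangle is a ratio of 0. TOP2A to TOP2B is about 0.147 in AG120_Nutlin and 6.43 in vehicle, whereas NCAPD2 to SMC2 stays between 3.47 and 5.33 in all 12 libraries.

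The condensin core genes fell less than TOP2A and nearly alike. SMC2 (chromosome 9, 106856541 to 106903698) had 20.2, 18.3 and 20.4 CPM in AG120_Nutlin and 21.2, 18.9 and 14.5 CPM in vehicle_Nutlin, against 160, 132 and 117 CPM in AG120 and 130, 141 and 133 CPM in vehicle. SMC4 (chromosome 3, 160117062 to 160152750), its partner ATPase, had 19.3, 21.3 and 20.9 CPM in AG120_Nutlin and 22.0, 21.9 and 14.7 CPM in vehicle_Nutlin, against 139, 117 and 112 CPM in AG120 and 125, 135 and 134 CPM in vehicle. For both genes the lowest library with Nutlin was vehicle_Nutlin replicate 3, and the Nutlin groups lay wholly below the others. SMC2 fell by 2.80 on the log2 scale in AG-120 cells (SE 0.15, adjusted p = 5.65e-09) and fell by 2.89 in vehicle cells (SE 0.15, adjusted p = 5.15e-09). SMC4 fell by 2.58 in AG-120 cells (SE 0.149, adjusted p = 1.09e-08) and fell by 2.75 in vehicle cells (SE 0.149, adjusted p = 7.84e-09). The SMC4 to SMC2 count ratio was 1.05 ± 0.106 in AG120_Nutlin and 1.07 ± 0.0793 in vehicle_Nutlin, against 0.904 ± 0.0456 in AG120 and 0.976 ± 0.0262 in vehicle (SD, n = 3 each). These ratios within condensin were not tested.

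The 3 condensin I subunits differed in the size of their fall, with 95% intervals in AG-120 cells of −2.73 to −2.15 for NCAPD2, −5.73 to −4.90 for NCAPH and −7.95 to −6.69 for NCAPG on the log2 scale. NCAPD2 (chromosome 12, 6602522 to 6641121), a HEAT-repeat subunit, had 101, 97.4 and 92.4 CPM in AG120_Nutlin and 91.5, 95.4 and 65.4 CPM in vehicle_Nutlin, against 555, 527 and 497 CPM in AG120 and 609, 577 and 574 CPM in vehicle. It fell by 2.44 on the log2 scale in AG-120 cells (SE 0.132, adjusted p = 6.09e-09) and fell by 2.80 in vehicle cells (SE 0.134, adjusted p = 2.28e-09), close to the core genes. Its count ratio to SMC2 was 4.96 ± 0.401 in AG120_Nutlin and 4.62 ± 0.385 in vehicle_Nutlin, against 3.90 ± 0.393 in AG120 and 4.37 ± 0.301 in vehicle (SD, n = 3 each).

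NCAPG (chromosome 4, 17812525 to 17846485), the other HEAT-repeat subunit of condensin I, had 18, 6 and 8 counts in AG120_Nutlin and 22, 10 and 20 counts in vehicle_Nutlin, against 2683, 1873 and 1564 counts in AG120 and 1864, 1753 and 2796 counts in vehicle. These are 1.09, 0.296 and 0.470 CPM in AG120_Nutlin and 1.17, 0.599 and 0.855 CPM in vehicle_Nutlin, against 115, 91.9 and 82.5 CPM in AG120 and 93.5, 99.2 and 96.2 CPM in vehicle. The Nutlin libraries held so few NCAPG reads that their order among themselves carries little weight, while the gap to the libraries without Nutlin was wide. The log2 fold change was −7.32 in AG-120 cells (95% interval −7.95 to −6.69, adjusted p = 3.87e-10) and −6.76 in vehicle cells (95% interval −7.36 to −6.17, adjusted p = 5.40e-10). The NCAPG to SMC2 count ratio was 0.0310 ± 0.02 in AG120_Nutlin and 0.0485 ± 0.0147 in vehicle_Nutlin, against 0.706 ± 0.0105 in AG120 and 0.715 ± 0.00890 in vehicle (SD, n = 3 each).

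NCAPH (chromosome 2, 97001525 to 97039583), the kleisin subunit that closes the condensin I ring, had 1.45, 0.937 and 1.71 CPM in AG120_Nutlin and 2.49, 3.06 and 2.01 CPM in vehicle_Nutlin, against 51.9, 58.5 and 50.7 CPM in AG120 and 64.02, 60.6 and 66.7 CPM in vehicle. All 4 groups were separate, and AG120_Nutlin was the lowest. With Nutlin, NCAPH fell by 5.31 on the log2 scale in AG-120 cells (SE 0.191, adjusted p = 1.61e-10) and fell by 4.68 in vehicle cells (SE 0.177, adjusted p = 2.83e-10). Its count ratio to SMC2 was 0.0688 ± 0.0164 in AG120_Nutlin and 0.139 ± 0.0224 in vehicle_Nutlin, against 0.400 ± 0.0665 in AG120 and 0.475 ± 0.0383 in vehicle (SD, n = 3 each). The ratio of NCAPG to SMC2 was at most 0.059 in a Nutlin library and at least 0.698 in a library without Nutlin, and that of NCAPH to SMC2 at most 0.162 and at least 0.324. The parts of condensin I thus did not keep their RNA proportions with Nutlin, as the plot of count ratios shows.

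CDCA5 (chromosome 11, 64833772 to 64851636), which encodes sororin, had 2.71, 2.42 and 2.41 CPM in AG120_Nutlin and 3.49, 2.70 and 3.42 CPM in vehicle_Nutlin, against 88.7, 83.2 and 81.4 CPM in AG120 and 93.9, 92.2 and 94.7 CPM in vehicle. The Nutlin groups overlapped each other and lay far below the others. It fell by 5.07 on the log2 scale in AG-120 cells (SE 0.119, adjusted p = 1.20e-11) and fell by 4.86 in vehicle cells (SE 0.116, adjusted p = 1.42e-11).

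ESCO2 (chromosome 8, 27629466 to 27670157), the acetyltransferase that acts during replication, was nearly silent with Nutlin. It had 4, 2 and 1 counts in AG120_Nutlin and 22, 0 and 12 counts in vehicle_Nutlin, against 830, 815 and 717 counts in AG120 and 836, 804 and 1279 counts in vehicle. The library at 0 allows a level of up to 0.18 CPM (3 counts), a limit that covers counting error only. Levels without Nutlin were 35.6, 40.0 and 37.8 CPM in AG120 and 41.9, 45.5 and 44.0 CPM in vehicle, so no library with Nutlin came near them. The log2 fold change was −8.12 in AG-120 cells (95% interval −9.22 to −7.01, adjusted p = 2.46e-08) and −6.24 in vehicle cells (95% interval −7.12 to −5.35, adjusted p = 4.39e-08). By log2 fold change ESCO2 ranked 6 from the lowest of 15691 genes in AG-120 cells and 70 in vehicle cells.

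ESCO1 (chromosome 18, 19109242 to 19180845), which acetylates SMC3 outside replication as well, had 22.3, 20.4 and 17.4 CPM in AG120_Nutlin and 20.0, 26.1 and 13.8 CPM in vehicle_Nutlin, against 23.8, 19.4 and 18.4 CPM in AG120 and 21.8, 20.3 and 21.2 CPM in vehicle. The groups overlapped throughout. The log2 fold change was −0.04 in AG-120 cells (95% interval −0.45 to 0.38, adjusted p = 0.883) and −0.08 in vehicle cells (95% interval −0.50 to 0.33, adjusted p = 0.734). The fall of ESCO2 lies far outside those bounds.

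The ESCO2 to ESCO1 count ratio averaged 0.00634 ± 0.00393 in AG120_Nutlin and 0.0318 ± 0.0295 in vehicle_Nutlin, against 1.87 ± 0.326 in AG120 and 2.08 ± 0.157 in vehicle (SD, n = 3 each). ESCO2 gave more reads than ESCO1 in every library without Nutlin and at most 0.0582 of them in any library with it. The log2 ratio of counts + 0.5 differed by −7.62 with Nutlin, the mean of −8.01 in AG-120 cells and −7.23 in vehicle cells (two-sided exact permutation test, p = 0.005, the smallest possible, adjusted p = 0.00667). Its size depended on the number added to the low counts, and with counts + 2 the difference was −6.90. Without the 3 outlying libraries, with counts + 0.5, it was −6.64.

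The order of the genes by level per kilobase of transcript changed with Nutlin. NCAPD2 was highest with Nutlin, at 17.5 ± 0.792 CPM per kilobase in AG120_Nutlin and 15.2 ± 2.94 in vehicle_Nutlin, followed in both by TOP2B and then ESCO1, at 4.43 ± 0.552 and 4.41 ± 1.36 in the same groups. TOP2A was the sixth and ESCO2 the lowest by mean there; in vehicle_Nutlin, however, the libraries of TOP2A overlapped those of SMC2, the next above it, and those of ESCO2 overlapped those of NCAPG. Without Nutlin the order began with TOP2A, at 118 ± 6.53 in AG120 and 129 ± 4.30 in vehicle, then NCAPD2, at 94.9 ± 5.26 and 106 ± 3.51, and CDCA5, at 32.6 ± 1.48 and 36.2 ± 0.511 (SD, n = 3). ESCO1 was the lowest of the 10 in both groups without Nutlin, at 4.54 ± 0.636 in AG120 and 4.66 ± 0.161 in vehicle. SMC4, NCAPH, SMC2, TOP2B and NCAPG lay between 20.7 and 24.0 CPM per kilobase in vehicle, where the libraries of neighbours in the order overlapped, as they did for TOP2B, SMC2, SMC4, NCAPG and NCAPH in AG120. In vehicle_Nutlin the libraries also overlapped between NCAPD2 and TOP2B, between ESCO1 and SMC4, between SMC4 and SMC2 and between CDCA5 and NCAPH, whereas in AG120_Nutlin ESCO1 and SMC4 were the only neighbours that overlapped.

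**Figure D3:**
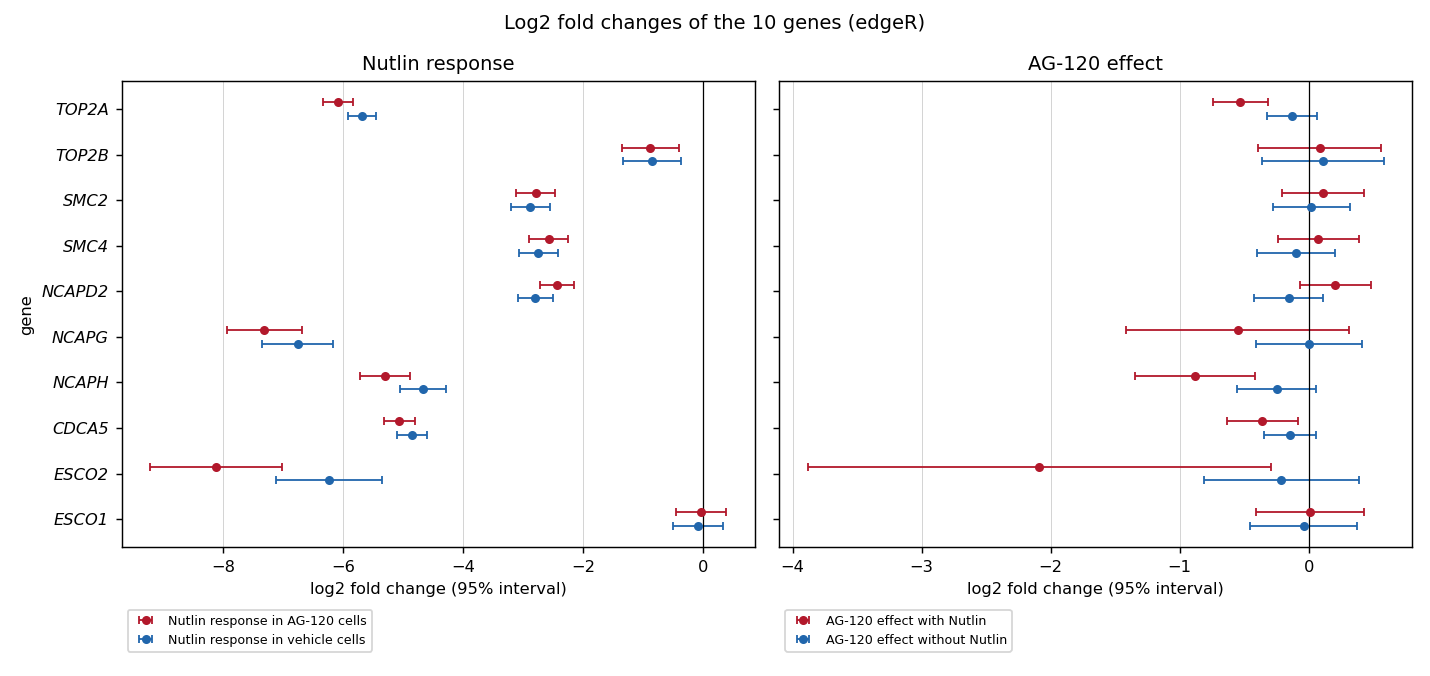
Log2 fold changes of the 10 genes from edgeR with 95% intervals, for Nutlin in AG-120 and in vehicle cells (left) and for AG-120 with and without Nutlin (right, on a narrower axis). With Nutlin the changes run from −8.12 for ESCO2 to −0.04 for ESCO1, and the AG-120 changes lie between −2.09 and 0.21.

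None of the 10 genes was called with AG-120 alone, in either direction. Of all genes, edgeR called 0% lower and 0.051% higher. No gene of the 10 had an unadjusted p below 0.05, and DESeq2 called 0 of them as well. For 5 genes, all 3 AG120 libraries nevertheless lay below all 3 vehicle libraries, as did 10.3% of all genes tested. These were TOP2A at −0.13 on the log2 scale (95% interval −0.32 to 0.07), NCAPD2 at −0.16 (−0.43 to 0.11), NCAPH at −0.25 (−0.55 to 0.06), CDCA5 at −0.15 (−0.35 to 0.05) and ESCO2 at −0.21 (−0.81 to 0.39). The 10 log2 fold changes ran from −0.25 to 0.11, with a median of −0.11, beside 0.00 for all genes. Without the 3 outlying libraries, the log2 fold change was −0.20 for SMC4 and −0.20 for NCAPD2. That fit leaves vehicle_Nutlin with 1 library.

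With Nutlin present, TOP2A was lower in AG-120 cells than in vehicle cells, the only call among the 10. TOP2A was at 9.95 ± 0.464 CPM in AG120_Nutlin and 14.4 ± 1.18 CPM in vehicle_Nutlin (SD, n = 3 each), a log2 fold change of −0.53 (95% interval −0.74 to −0.32, adjusted p = 0.0157). edgeR called 1.93% of all genes lower and 0.433% higher in this comparison. The call was made under 16 of 20 alternatives and lost under 4: with AG120_Nutlin replicate 1, 2 or 3 left out the log2 fold change was −0.52, −0.50 or −0.57 and the adjusted p 0.0883, 0.116 or 0.067, and in a fit of the compared groups alone it was 0.196. The vehicle_Nutlin group that TOP2A is set against had the widest spread of the 4, with a median SD over genes of 0.29 on the log2 scale, against 0.0924 in AG120_Nutlin, 0.183 in AG120 and 0.102 in vehicle.

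NCAPH and ESCO2 missed the threshold in the same comparison but were called under some alternatives. For NCAPH the AG120_Nutlin libraries all lay below the vehicle_Nutlin libraries, as for TOP2A, and these were 2 of the 10 genes, beside 14.1% of all genes tested. Its log2 fold change was −0.88 (95% interval −1.35 to −0.42, adjusted p = 0.0516). It was called with DESeq2 (adjusted p = 0.0088), with no filter on low counts (0.00453), with a filter of 1 CPM in 3 libraries (0.0488) and without vehicle_Nutlin replicate 3 (0.0166). Under the other 16 of 20 alternatives it was not called, with an adjusted p of up to 0.302, and the log2 fold change over all 20 ran from −1.08 to −0.65. ESCO2, at 4, 2 and 1 counts in AG120_Nutlin and 22, 0 and 12 counts in vehicle_Nutlin, had a log2 fold change of −2.09 (95% interval −3.88 to −0.30, adjusted p = 0.193). It was called without vehicle_Nutlin replicate 2, the library at 0 (log2 fold change −2.59, adjusted p = 0.0219), without the 3 outlying libraries (−3.09, adjusted p = 0.000533) and with no filter on low counts (−2.10, adjusted p = 0.00253). Under the other 16 of 19 alternatives it was not called, with an adjusted p of up to 0.448, and without vehicle_Nutlin replicate 1, which held 22 counts, the log2 fold change was −1.14 (adjusted p = 0.382).

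The other 7 genes were not called with AG-120 under Nutlin in any of the 20 alternatives. CDCA5 had a log2 fold change of −0.36 (adjusted p = 0.178), NCAPG of −0.55 (adjusted p = 0.445) and NCAPD2 of 0.21 (adjusted p = 0.372). SMC2, SMC4, TOP2B and ESCO1 lay between 0.01 and 0.11. An unadjusted p below 0.05 was found for 4 of the 10 genes, all lower, beside 19.5% of all genes tested in either direction. DESeq2 called 2 of the 10, both lower, beside 4.08% of all genes lower and 1.68% higher. The TOP2A to TOP2B log2 ratio differed by −0.46 with AG-120 over all 12 libraries, the mean of −0.70 with Nutlin and −0.23 without it (two-sided exact permutation test within the Nutlin strata, p = 0.005, adjusted p = 0.00667). The vehicle_Nutlin library with low TOP2B had the highest ratio of its group, and without it the difference was −0.31 (adjusted p = 0.00667), while without the 3 outlying libraries it was −0.19 (adjusted p = 0.0333). Without AG120_Nutlin replicate 1 or 2 it was −0.47 or −0.45 with an adjusted p of 0.0533 each time. The ESCO2 to ESCO1 log2 ratio differed by −0.56 with AG-120 (exact permutation p = 0.52), and by −1.45 without vehicle_Nutlin replicate 2 (adjusted p = 0.02).

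Whether Nutlin acted differently in AG-120 cells was tested as the interaction, and edgeR called none of the 10 genes, as against 0.331% of all genes called lower and 0.0319% called higher. DESeq2 also called 0 of the 10, and 2 had an unadjusted p below 0.05, both with a larger fall in AG-120 cells, beside 11% of all genes in either direction. These were TOP2A, with a difference of −0.40 between the log2 fold changes (95% interval −0.69 to −0.12, adjusted p = 0.286), and NCAPH, with −0.64 (−1.19 to −0.08, adjusted p = 0.383). ESCO2 had a difference of −1.88 (−3.79 to 0.03, adjusted p = 0.464) and NCAPD2 of 0.36 (−0.02 to 0.75, adjusted p = 0.478). Without the 3 outlying libraries, the difference was −0.41 for TOP2A and −2.92 for ESCO2. That fit leaves vehicle_Nutlin with 1 library, replicate 1, which held 22 ESCO2 counts. The Nutlin comparisons and the AG-120 comparisons share libraries, so their values are not independent of each other.

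Of 41 other genes of the same machinery in 7 lists, 40 were tested. With Nutlin 28 were called lower and 4 higher in AG-120 cells and 28 lower and 6 higher in vehicle cells. Over all genes tested, 28.8% were called lower and 27% higher in AG-120 cells, and 27.1% lower and 26.8% higher in vehicle cells. The counts of each list below are to be read beside these shares. All 3 condensin II subunit genes fell: the log2 fold change was −3.41 in AG-120 cells and −3.77 in vehicle cells for NCAPG2, −2.34 and −2.80 for NCAPD3, and −0.95 and −0.84 for NCAPH2. NCAPG2 is the condensin II counterpart of NCAPG, and the NCAPG to NCAPG2 count ratio was 0.0534 ± 0.0366 in AG120_Nutlin and 0.0910 ± 0.0320 in vehicle_Nutlin, against 0.782 ± 0.128 in AG120 and 0.719 ± 0.0382 in vehicle (SD, n = 3 each). The ratio was not tested.

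The cohesin ring and its loading and release factors changed less than CDCA5 and ESCO2. Of 11 genes, 7 fell and 1 rose in each pretreatment, with a median log2 fold change of −0.50 in AG-120 cells and −0.63 in vehicle cells. The ring subunit genes SMC1A, SMC3 and RAD21 fell. The log2 fold change was −1.62 in AG-120 cells and −1.98 in vehicle cells for SMC1A, −1.42 and −1.70 for SMC3, and −0.79 and −0.85 for RAD21. Among the STAG subunit genes, STAG1 fell, at −0.96 in AG-120 cells and −1.08 in vehicle cells. STAG2 was not called, at −0.14 and −0.07, and had the higher level of the pair in vehicle, at 166 CPM against 39.1 CPM for STAG1. The gene that rose was MAU2, a subunit of the cohesin loader, by 1.00 in AG-120 cells and 0.56 in vehicle cells. MAU2 and STAG2 were named after their values were seen.

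The genes that protect or cleave cohesin in mitosis fell, 4 of 4 in each pretreatment. ESPL1, which encodes separase, had log2 fold changes of −6.70 in AG-120 cells and −6.84 in vehicle cells. The shugoshin genes SGOL1 (SGO1) and SGOL2 (SGO2) stood at −5.30 and −4.09 in AG-120 cells and at −4.96 and −3.70 in vehicle cells. PTTG1, which encodes the separase inhibitor securin, stood at −0.96 in AG-120 cells and −1.43 in vehicle cells, but it has near-identical copies elsewhere in the genome, so its counts are uncertain. Of 7 genes that couple cohesion to replication, 6 fell in each pretreatment. WDHD1, a replisome scaffold, had log2 fold changes of −2.67 in AG-120 cells and −2.63 in vehicle cells, and CHTF18, of an alternative clamp loader, of −3.69 and −3.90. TIMELESS, which protects replication forks, stood at −1.47 in AG-120 cells and −1.85 in vehicle cells, and the helicase gene DDX11, which also has near-identical copies, at −3.21 and −3.67. The gene not called was CHTF8, named after its value was seen, at −0.09 in AG-120 cells and −0.04 in vehicle cells.

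Genes of the related SMC5/6 complex and of the other topoisomerases showed smaller changes in both directions. Of 6 tested SMC5/6 genes, 3 fell and 1 rose in AG-120 cells, where 28.8% of all genes were called lower and 27% higher. In vehicle cells 3 of the 6 fell and 2 rose, beside 27.1% of all genes lower and 26.8% higher. The log2 fold change in vehicle cells was −0.95 for SMC5, −0.86 for SMC6, −0.63 for NSMCE4A and 0.59 for NSMCE1. In AG-120 cells it was −0.73, −0.44 and −0.43 for the first 3, and NSMCE1 was not called there, at 0.12. NDNL2, named after its values were seen, rose by 0.57 in AG-120 cells and 0.53 in vehicle cells. In AG-120 cells 1 of the 6 SMC5/6 genes fell, not 3, when any 1 of the AG120_Nutlin libraries was left out. TOP1, the type I enzyme that relaxes supercoils, rose by 0.85 in AG-120 cells and 0.65 in vehicle cells, and TDP2, which removes trapped topoisomerase II from DNA ends, rose by 0.74 and 0.89. TDP1, which removes trapped topoisomerase I, had log2 fold changes of −0.87 in AG-120 cells and −0.86 in vehicle cells, and TOP3A, which resolves linked DNA, of −0.34 and −0.65.

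Among genes that assist chromosome assembly, KIF4A, a chromosome-bound kinesin that works with condensin, had log2 fold changes of −7.91 in AG-120 cells and −7.10 in vehicle cells. MKI67, which coats mitotic chromosomes, stood at −6.17 and −6.74 in the same cells and is uneven within vehicle_Nutlin, at 0.0855 to 10.4 CPM. MCPH1, an inhibitor of condensin II, rose by 0.45 in vehicle cells (adjusted p = 0.016) and was not called in AG-120 cells, at 0.09. That call was absent under 4 of 20 alternatives, which were no filter on low counts, the compared groups alone, the 3 outlying libraries left out and vehicle replicate 1 left out. With AG-120 alone none of the 40 genes was called (0 by edgeR, 0 by DESeq2). An unadjusted edgeR p below 0.05 was found for 3 of the 40, beside 7.99% of all genes tested. For AG-120 under Nutlin, edgeR called only TIMELESS, which was higher by 0.43 on the log2 scale (adjusted p = 0.0478). DESeq2 called 1 of the 40 lower and 1 higher there, beside 4.08% of all genes lower and 1.68% higher. An unadjusted edgeR p below 0.05 was found for 10 of the 40, beside 19.5% of all genes. The TIMELESS call was absent under 13 of 20 alternatives, including 9 of the 12 that left out 1 library.

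**Figure D4:**
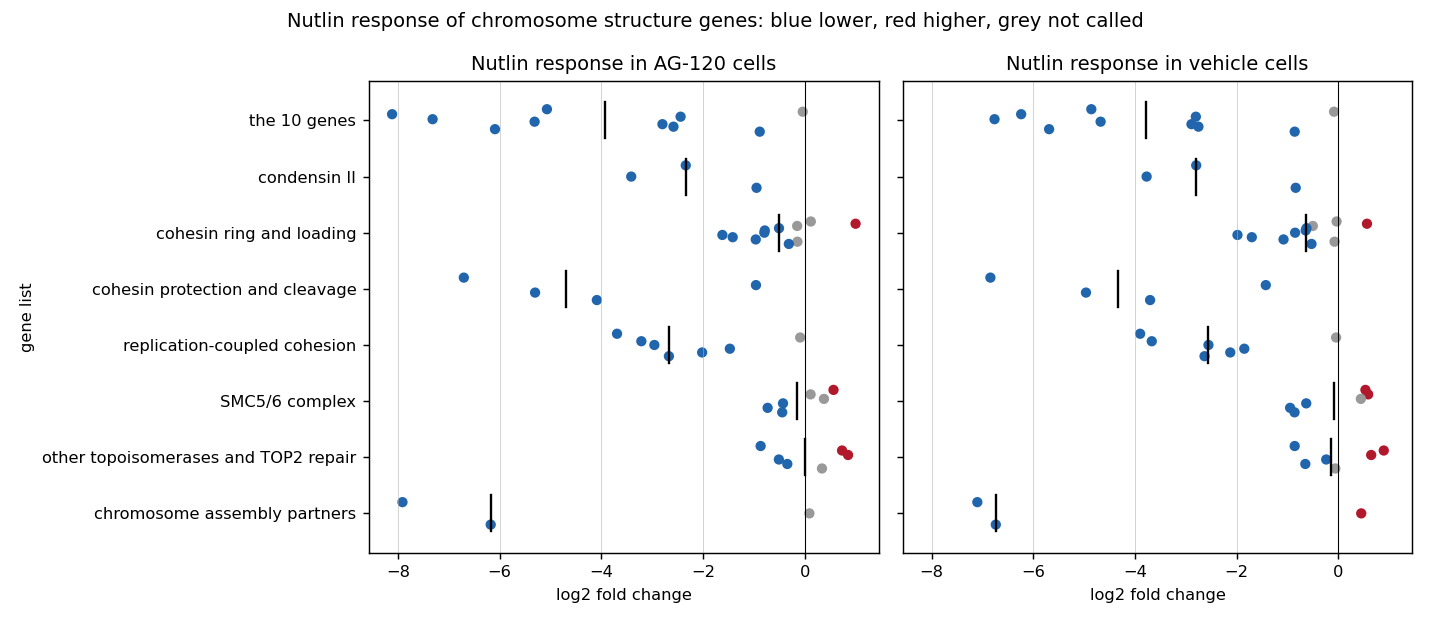
Log2 fold change with Nutlin of the 10 genes and of 40 tested genes in 7 lists of related genes, in AG-120 cells (left) and vehicle cells (right); points are genes, blue called lower, red called higher and grey not called, and black lines are medians. The 10 genes have medians of −3.93 and −3.78, and the genes of the SMC5/6 complex and the other topoisomerases lie on both sides of 0.

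By the correlation of log2 CPM over the 12 libraries, the genes most like TOP2A among 10688 were MELK, KIF20A, ANLN, TACC3 and SGOL2 (Pearson r of 0.9994, 0.9994, 0.9992, 0.9988 and 0.9986). Those most like TOP2B were NFIX, AFAP1, CACNA1H, MYH10 and FLNA (0.9946, 0.9918, 0.9908, 0.9906 and 0.9903). The libraries fall into 6 with and 6 without Nutlin, so these values mainly record that split, and they are given as a description. Among the 10 genes, the r with TOP2A was 0.998 for CDCA5, 0.972 or more for all but TOP2B and ESCO1, 0.847 for TOP2B and 0.183 for ESCO1.

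Some of the counts could include reads of neighbours, since it is not stated whether counting used strand. In the deposited coordinates SMC4 overlaps IFT80, TRIM59 and 1 entry that held 0 counts, NCAPD2 overlaps MRPL51, NCAPG overlaps LCORL, and ESCO2 overlaps CCDC25 and PBK, all protein-coding. TOP2A, SMC2, NCAPH, CDCA5 and ESCO1 overlap no protein-coding entry, and TOP2B overlaps only entries for small RNAs.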

How the data were processed

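RNA was measured in 12 libraries of RBE cells (paired reads from poly(A)-selected RNA, per the labels' protocols). The deposited values are counts of reads for each gene symbol, without normalization. Partek, STAR, HTSeq, DESeq2 and the build hg19 are named in the submitters' processing notes, without versions or roles, and the use of strand in counting is not given in the sources used here. Gene positions are hg19 from the same table, whose stop lies 1 base past the gene's end. Library totals ran from 16840161 to 27499433 counts. The upper limit given for the library without ESCO2 counts covers counting error only.

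The tests used edgeR 4.0.16 in R 4.3.3. Genes kept by filterByExpr were scaled by TMM and fitted with one quasi-likelihood model with a term per group. P-values were adjusted by Benjamini-Hochberg over all tested genes of a comparison, and a gene was called at 0.05. SE is the size of the log2 fold change over the root of its F statistic, and 95% intervals use its t quantile. Levels are TMM-scaled CPM, and levels per kilobase use the longest principal transcript of GENCODE v29. Count ratios were tested by exact permutation within strata. The fit was checked on simulated data for Nutlin in vehicle cells only. The simulation gave every group the same spread, unlike the real groups, so it does not cover the AG-120 comparisons. Alternatives were DESeq2 1.42.0, other scalings and filters, the replicate number as a block, only the compared groups, leaving out each library, and leaving out 3 libraries together.

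Named are the 10 genes, up to 4 genes of each related list with the smallest adjusted p for Nutlin in vehicle cells, MDM2, CDKN1A, and the 5 genes most correlated with TOP2A and with TOP2B (mean of at least 5 CPM, log2 CPM with a prior count of 2). The genes, lists and tests were chosen with earlier results of these data known, so no list is independent evidence of its direction.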

Additional observations from a re-analysis of the deposited data

How the results depend on the processing

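For Nutlin, every alternative run for each of the 10 genes, 200 in AG-120 cells and 200 in vehicle cells, kept the direction or, for ESCO1, the lack of a call. With the replicate number as a block, 9 of the genes were again lower with Nutlin in each pretreatment, 1 was lower with AG-120 under Nutlin and none was called in the other comparisons. Libraries of the same number were not more alike than others. Their deviations from the group mean correlated at −0.224 to 0.116 (median −0.0223), against −0.186 to 0.214 (median 0.0182) for different numbers. With 3 libraries in a group, these values cannot exclude that the numbers pair the samples. The count of genes lower with AG-120 under Nutlin, 1 as reported, was 2 with DESeq2 and 3 with no filter. It was 2 with a filter of 1 CPM in 3 libraries, 0 with only the compared groups and 0 to 2 without 1 library. Over all genes, 303 of 15691 were called lower as reported, 640 with DESeq2, 678 of 29603 with no filter and 336 with the 1 CPM filter. These calls numbered 15 with only the compared groups and 56 to 619 without 1 library. The count lower with AG-120 alone, 0 as reported, changed only without the 3 outlying libraries, a fit with 1 vehicle_Nutlin library. The count with a lower interaction, 0 as reported, was 1 with no filter. Over all genes, a lower interaction was called for 52 of 15691 as reported and 203 of 29603 with no filter. Without the 3 outlying libraries that count changed too, as did the count under Nutlin. Leaving out 1 library, the AG-120 difference in the TOP2A to TOP2B log2 ratio ran from −0.57 to −0.31 and that in the ESCO2 to ESCO1 log2 ratio from −1.453 to −0.0293. A pseudocount of 0 could not be used for ESCO2 to ESCO1 because a library has 0 ESCO2 counts. Where calls changed, the cause was not tested. Depth limits NCAPG and ESCO2 with Nutlin, at 6 to 22 and 0 to 22 counts a library.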
